A study of Rattus norvegicus with 10 samples.

Results

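The miR-1 and miR-133 family of rat striated muscle was examined in the left ventricle after an infusion of the sedative dexmedetomidine (DEX), an agonist of alpha2 adrenoceptors. The 6 members were taken by name from the 761 rat miRNAs on the chip, namely rno-miR-1-3p, rno-miR-1b, rno-miR-133a-3p, rno-miR-133a-5p, rno-miR-133b-3p and rno-miR-206-3p. The rule itself uses names and no measured value, although the family was proposed with earlier results of these data known. All 6 were detected on all 10 arrays, so all 6 were among the 503 miRNAs detected on at least 5 arrays, over which the groups were compared. The animals were male Wistar rats of 250 to 350 g, and the tissue was heart that had not been made ischemic. The Control group (5 arrays) received saline. The DEX group (5 arrays) received dexmedetomidine for 30 min. Each array held the RNA of 1 labelled replicate, 1 rat per the study's methods, and P values measure the spread between these samples. The comparison asks whether a short exposure to DEX changed the levels of these miRNAs in the heart.

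MicroRNAs are short RNAs that bind messenger RNAs and lower their translation or stability, and they find their targets mainly through the seed, which spans bases 2 to 8. In mammals, miR-1 and miR-133a are cut from shared primary transcripts of heart and skeletal muscle. miR-1 is known for promoting muscle differentiation and for acting on ion channels and conduction, and miR-133 for restraining smooth muscle genes and growth in the heart. miR-206 and miR-133b come from another transcript and are best known from skeletal muscle. The left ventricle holds cardiomyocytes together with endothelial cells, fibroblasts, smooth muscle and blood, and in such bulk RNA fewer cells of a type and less RNA per cell cannot be told apart.

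The mature sequences are shown because they decide which members a probe could confuse. They were taken from RefSeq (GRCr8) and are written 5′ to 3′ with the seed in capitals.
rno-miR-1-3p: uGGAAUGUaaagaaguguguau
rno-miR-1b: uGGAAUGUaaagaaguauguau
rno-miR-206-3p: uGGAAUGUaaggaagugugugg
rno-miR-133a-3p: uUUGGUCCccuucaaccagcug
rno-miR-133b-3p: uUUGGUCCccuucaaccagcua
rno-miR-133a-5p: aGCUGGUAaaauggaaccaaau
The members carry 3 seeds. Of the 685 chip miRNAs whose names matched RefSeq, the seed of miR-1 occurred in 3, the seed of the miR-133 3p arms in 2 and the seed of rno-miR-133a-5p in 1, and all of these were members. Counting positions from 1 at the 5′ end and giving the base of the first-named miRNA first, rno-miR-1-3p differs from rno-miR-1b by G17A alone, and rno-miR-133a-3p differs from rno-miR-133b-3p by G22A alone. rno-miR-206-3p differs from rno-miR-1-3p by A11G, A21G and U22G. The probes of each near-identical pair may therefore share target, and the values of rno-miR-1-3p with rno-miR-1b, and of rno-miR-133a-3p with rno-miR-133b-3p, are uncertain as separate measurements. Probe sequences were not used here.

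The genes lie at 3 places in GRCr8. rno-miR-1-3p is at chr18:2160339-2160360 and rno-miR-133a-3p at chr18:2157886-2157907, both on the minus strand and both within the span of Mib1, a protein-coding gene. rno-miR-133a-5p, at chr18:2157923-2157944, is the other arm of the Mir133a1 hairpin, and 2394 bases separate it from rno-miR-1-3p. rno-miR-206-3p (chr9:30590747-30590768) and rno-miR-133b-3p (chr9:30594629-30594650) lie on the plus strand within the long noncoding RNA gene LOC120094648, with 3801 bases between their hairpins. rno-miR-1b is at chr3:187864736-187864757 on the plus strand, where RefSeq lists no other gene. The table used does not say whether these positions are exonic or intronic. The Mir133a1 hairpin, shown because it gives 2 of the members, is printed with its 5p and then its 3p arm in capitals.
Mir133a1: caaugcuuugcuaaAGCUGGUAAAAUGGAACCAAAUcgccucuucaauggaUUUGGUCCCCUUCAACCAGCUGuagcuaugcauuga

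Signals are given on a linear scale after subtraction of the blank spots, with the median of the miRNAs detected on each array set to 25 (scaled signal). The number of detected miRNAs ranged from 483 to 533 per array. The slide was inferred from the chip code in the names of the scanner output, since the sample labels do not state it. By that code, slide 1 carried the first 4 Control arrays. Slide 2 carried Control 5 and the first 3 DEX arrays, and slide 3 carried the last 2 DEX arrays. Slide and group were thus largely entangled. DEX 1 was the dimmest array before scaling, with a median over blank of 17.3 against 35.4 to 53.5 on the others. The cardiomyocyte markers rno-miR-208a-3p and rno-miR-499-5p were detected on 10 of 10 arrays, whereas the liver marker rno-miR-122-5p was detected on 1 of 10. Of the neuronal markers, rno-miR-124-3p was detected on 1 of 10 and rno-miR-9a-5p on 10 of 10, at 8.14 to 18.3.

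rno-miR-1b gave the brightest spot of all miRNAs on all 10 arrays. On every array rno-miR-133b-3p came next, followed by rno-miR-133a-3p and then by rno-miR-1-3p. The mean scaled signals over 10 arrays were 22669 for rno-miR-1b, 14911 for rno-miR-133b-3p, 13324 for rno-miR-133a-3p and 7981 for rno-miR-1-3p. The remaining members were far dimmer, with 351 for rno-miR-206-3p (rank 66 of 503) and 328 for rno-miR-133a-5p (rank 69). Probes differ in how well they bind, so this is an order of spots and does not give the order of abundance. Among neighbours in this order, rno-miR-133a-3p minus rno-miR-133b-3p was small, from -0.28 to -0.052 on the log2 scale, but below 0 on every array. The order of rno-miR-206-3p and rno-miR-133a-5p was not fixed, since their log2 difference ran from -0.42 to 0.40 (miR-133a-5p minus miR-206-3p).

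Together the 6 members took 31.7% to 35.3% of the summed signal of all detected miRNAs. The probes of near-identical members may share target, so this sum may count some signal more than once. The share was 33.9% ± 1.29 (SD, n = 5) in Control and 33.2% ± 1.20 (SD, n = 5) in DEX. The difference of -0.651 percentage points was within the spread between arrays (two-sided exact permutation test, P = 0.421, where the smallest P that 5 against 5 arrays can give is 0.00794). It ranged from -1.03 without Control 1 to -0.283 without DEX 3 and was -1.73 within slide 2, where Control 5 was the only Control array. rno-miR-1b alone took 12.0% to 13.8%. With rno-miR-1b left out of both the members and the total, the share was 21.8% (DEX 3) to 25.3% (Control 3). On DEX 1, the rno-miR-1b spot intensity was 18535 against 34505 to 46874 elsewhere. The share of rno-miR-1b there was 13.1% and lay within the range of the other arrays.

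**Figure D1:**
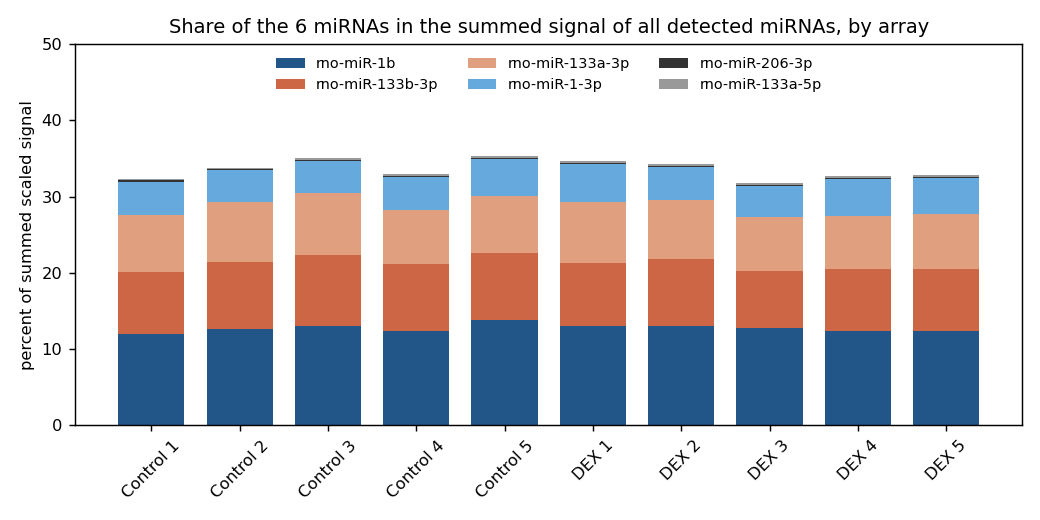
Percent of the summed scaled signal of all detected miRNAs taken by each of the 6 members (stacked bars, 1 bar per array). The total lies between 31.7% and 35.3% on the 10 arrays, and rno-miR-206-3p and rno-miR-133a-5p are thin bands at the top.

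None of the 6 members passed the test for a difference after DEX. At an adjusted P under 0.05 (limma, Benjamini-Hochberg over 503 miRNAs), 0 of 6 were called, against 0% of all miRNAs tested. At an unadjusted P under 0.05, 0 of 6 were called, against 2.98% of all. The methods' t-test was run on the log2 scaled signals used here, not on the authors' values. Requiring 1.5-fold and P under 0.05 by this test called 0 of 6, against 1.59% of all, and after Benjamini-Hochberg adjustment 0 of 6. No member had groups that did not overlap (0 of 6, against 0.596% of all). The mean was higher in DEX for 5 of 6 members, against 59.2% of all. The median log2 difference was 0.082 over the members and 0.044 over all miRNAs tested.

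The miR-1 sequences did not pass the test and were slightly higher on average in DEX. The scaled signal of rno-miR-1-3p was 7674, 7451, 5966, 6494 and 10229 in Control, by replicate number, and 10262, 7778, 6505, 7719 and 9727 in DEX. The groups overlapped, and the high Control array was Control 5, which shared slide 2 with the highest DEX array. The log2 difference was 0.16 ± 0.18 (SE), a 1.11-fold ratio with a 95% confidence interval of 0.85 to 1.46 (limma, adjusted P = 0.905). For rno-miR-1b the values were 21284, 22488, 18785, 19101 and 29015 in Control, and 26688, 23224, 20350, 20195 and 25562 in DEX. Control 5 was the highest of all 10 arrays, and the groups overlapped. The log2 difference was 0.077 ± 0.157 (SE), with an interval of 0.83- to 1.34-fold (limma, adjusted P = 0.916).

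The miR-133 3p arms lay still closer together between the groups. rno-miR-133a-3p measured 13278, 13906, 11772, 11029 and 15661 in Control, and 16238, 13761, 11164, 11442 and 14990 in DEX. The groups covered nearly the same range. The log2 difference was 0.038 ± 0.156 (SE), with an interval of 0.81- to 1.30-fold (limma, adjusted P = 0.955). rno-miR-133b-3p measured 14352, 15446, 13259, 13386 and 18380 in Control, and 16837, 15465, 11998, 13174 and 16815 in DEX. It was the only member with a lower log2 mean in DEX, by -0.013 ± 0.152 (SE), and its lowest array (DEX 3) and its highest (Control 5) were both on slide 2. The interval was 0.79- to 1.24-fold (limma, adjusted P = 0.985).

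rno-miR-133a-5p, the arm opposite to rno-miR-133a-3p in the same hairpin, measured 326, 288, 288, 271 and 379 in Control, and 382, 362, 296, 325 and 360 in DEX. In Control, 4 arrays lay between 271 and 326, and 3 DEX arrays lay between 360 and 382, but Control 5 was among the highest and the groups overlapped. The log2 difference was 0.16 ± 0.14 (SE), with an interval of 0.90- to 1.38-fold (limma, adjusted P = 0.905). rno-miR-206-3p, the skeletal muscle relative, measured 354, 287, 315, 364 and 381 in Control, and 290, 367, 366, 367 and 419 in DEX. DEX 1 and Control 2 were the lowest, and the groups overlapped. The log2 difference was 0.087 ± 0.142 (SE), with an interval of 0.86- to 1.32-fold (limma, adjusted P = 0.914). Over the 6 members the confidence intervals reached from 0.79- to 1.46-fold, so that smaller differences in either direction could not be told from 0 with 5 arrays per group.

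**Figure D2:**
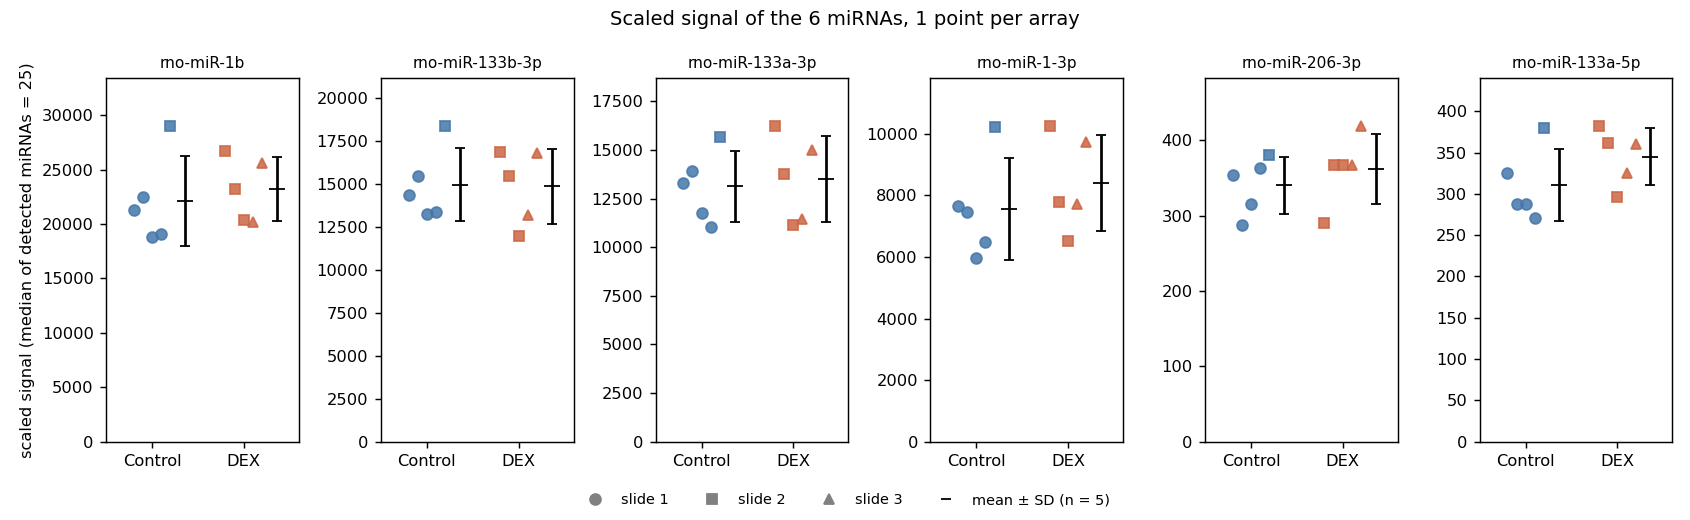
Scaled signal (linear axis from 0, own axis per panel) of each member on 5 Control and 5 DEX arrays, with the slide as the marker and the mean ± SD beside the points. The groups overlap in every panel, and Control 5, on slide 2, is the highest Control array of all 6 members.

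Slide 2 was the only slide with both groups. There, with 1 Control array against 3 DEX arrays, the mean log2 difference was -0.35 for rno-miR-1-3p, -0.32 for rno-miR-1b, -0.21 for rno-miR-133a-3p, -0.14 for rno-miR-133a-5p, -0.33 for rno-miR-133b-3p and -0.17 for rno-miR-206-3p. All 6 were thus lower in DEX within this slide on this scale, and the median over all tested miRNAs was -0.19. A fit with slide as a fixed term gave the same estimates, and none passed (limma, adjusted P = 0.897 to 0.922). These values rest on Control 5 alone, and with the arrays scaled on the miRNAs detected on every array rno-miR-133a-5p (0.050) and rno-miR-206-3p (0.021) were higher in DEX in the same fit.

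The scaling step moved the members together. The array factor based on each array's own detected miRNAs exceeded the factor based on the 405 miRNAs detected on every array by 1.35-fold on DEX 3 (487 detected) to 1.71-fold on Control 5 (533 detected). With the latter factor, which the authors' value table uses, the pooled SD between replicates on the log2 scale fell from 0.28 to 0.17 for rno-miR-1-3p, from 0.22 to 0.11 for rno-miR-1b, from 0.22 to 0.090 for rno-miR-133a-3p, from 0.17 to 0.096 for rno-miR-133a-5p and from 0.21 to 0.089 for rno-miR-133b-3p. For rno-miR-206-3p it rose from 0.18 to 0.23, and the median over all tested miRNAs went from 0.30 to 0.26. The intervals narrowed accordingly, to 0.94- to 1.36-fold for rno-miR-1-3p, 0.92- to 1.24-fold for rno-miR-1b, 0.90- to 1.20-fold for rno-miR-133a-3p and 0.87- to 1.16-fold for rno-miR-133b-3p. The sign for rno-miR-133b-3p turned, with a log2 difference of 0.0086.

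rno-miR-133a-5p came closest to a difference on this scale. Its signal was 178 to 222 in Control and 212 to 239 in DEX, so that the groups overlapped only at their edges. The Control array inside the DEX range was Control 5 (222), the only Control array on slide 2. The Control arrays of slide 1 reached at most 207, so slide and group were not separated here. The log2 difference was 0.18 ± 0.094 (SE), with an interval of 0.98- to 1.31-fold (limma, adjusted P = 0.632 over all miRNAs). The single-miRNA exact permutation test gave P = 0.0238 on this scale and P = 0.190 with each array's own factor, neither adjusted for the other members. This test took no account of slide. With slide as a fixed term on this scale the log2 difference was 0.050, which rests on Control 5 alone.

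**Figure D3:**
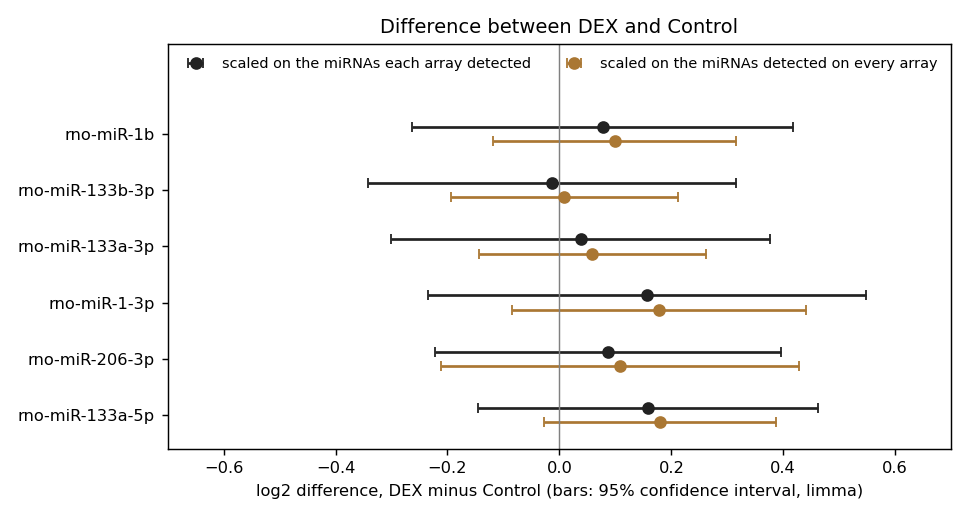
Log2 difference, DEX minus Control, for each member (points) with its 95% confidence interval from limma (bars), with each array scaled on its own detected miRNAs (black) or on the miRNAs detected on every array (brown). Every interval includes 0, and the brown ones are narrower for every member except rno-miR-206-3p.

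Ratios between members within an array need no scaling and were compared for all 15 pairs. With Benjamini-Hochberg adjustment over the pairs, 0 of 15 differed between the groups at an adjusted P under 0.05. The smallest unadjusted value was for rno-miR-133a-5p minus rno-miR-133b-3p, which was -5.59 ± 0.11 (SD, n = 5) in Control and -5.42 ± 0.087 (SD, n = 5) in DEX on the log2 scale. The difference was 0.17 (two-sided exact permutation test, P = 0.0317, adjusted P = 0.317). Within slide 2 it was 0.19, with no test. For rno-miR-1-3p minus rno-miR-133b-3p the difference was also 0.17 (exact permutation P = 0.0556, adjusted P = 0.317). Within slide 2 it was -0.0175. Both slide 2 values rest on Control 5 as the only Control array. Its arrays also entered the full comparison, so the direction within slide 2 is not separate support. Some of the other pairs kept their direction there and others did not.

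The 2 arms of the miR-133a hairpin were compared in the same way. rno-miR-133a-3p minus rno-miR-133a-5p was 5.40 ± 0.11 (SD, n = 5) in Control and 5.28 ± 0.11 (SD, n = 5) in DEX, a log2 difference of -0.12 (exact permutation P = 0.119, adjusted P = 0.446). The ratio of the pair on chromosome 18 that comes from neighbouring hairpins, rno-miR-1-3p minus rno-miR-133a-3p, differed by 0.12 (exact permutation P = 0.190, adjusted P = 0.446). Neither differed beyond the spread between arrays.

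The steadiest ratio within arrays was that of the near-identical rno-miR-133a-3p and rno-miR-133b-3p, with an SD of 0.065 on the log2 scale over 10 arrays. rno-miR-1b minus rno-miR-133a-3p, 2 miRNAs with different seeds whose listed RefSeq genes lie on different chromosomes, was almost as steady, with 0.076. The near-identical rno-miR-1-3p and rno-miR-1b varied more, with 0.11. All 5 ratios with rno-miR-206-3p were the least steady, with 0.22 to 0.31.

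The same split was seen in the scaled log2 signals over the 10 arrays, given with permutation P values for 15 pairs adjusted by Benjamini-Hochberg. All 10 pairs without rno-miR-206-3p were correlated, with Pearson r of 0.77 to 0.95 and Spearman rho of 0.75 to 0.95 (10 of 10 at an adjusted P under 0.05 by either measure). By Pearson r the highest were rno-miR-133a-3p with rno-miR-133b-3p (r = 0.95, rho = 0.90, adjusted permutation P = 0.000487 and 0.00381) and rno-miR-1-3p with rno-miR-1b (r = 0.94, rho = 0.90, with the same adjusted P values), and by Spearman rho rno-miR-1-3p with rno-miR-133a-5p (rho = 0.95, adjusted permutation P = 0.00225). The 5 pairs with rno-miR-206-3p had r of -0.12 to 0.23 and rho of 0.042 to 0.38, and 0 of 5 passed. For each pair, the 2 arrays farthest from the median of its first member, in the order listed at the start, were then left out. The arrays left out thus differed between pairs. There r was 0.72 to 0.95 in the first set and -0.063 to 0.77 in the second. The highest value of the second set was for rno-miR-133a-5p with rno-miR-206-3p without Control 4 and DEX 1. Of the 15 pairs, 9 were at an adjusted P under 0.05 (exact permutation of the remaining arrays).

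These correlations depended on the scaling that all points of an array share. Before scaling, all 15 pairs correlated, with r of 0.94 to 0.99 without rno-miR-206-3p and 0.89 to 0.96 with it. Scaled on the miRNAs detected on every array, the 10 pairs without rno-miR-206-3p had r of 0.35 to 0.85, those with it -0.60 to 0.31, and 1 of 15 pairs was below an adjusted P of 0.05. After subtraction of the group means, with each array's own factor, r was 0.87 to 0.96 without and -0.15 to 0.13 with rno-miR-206-3p. The slides held at most 4 arrays each, too few for a correlation within a slide.

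**Figure D4:**
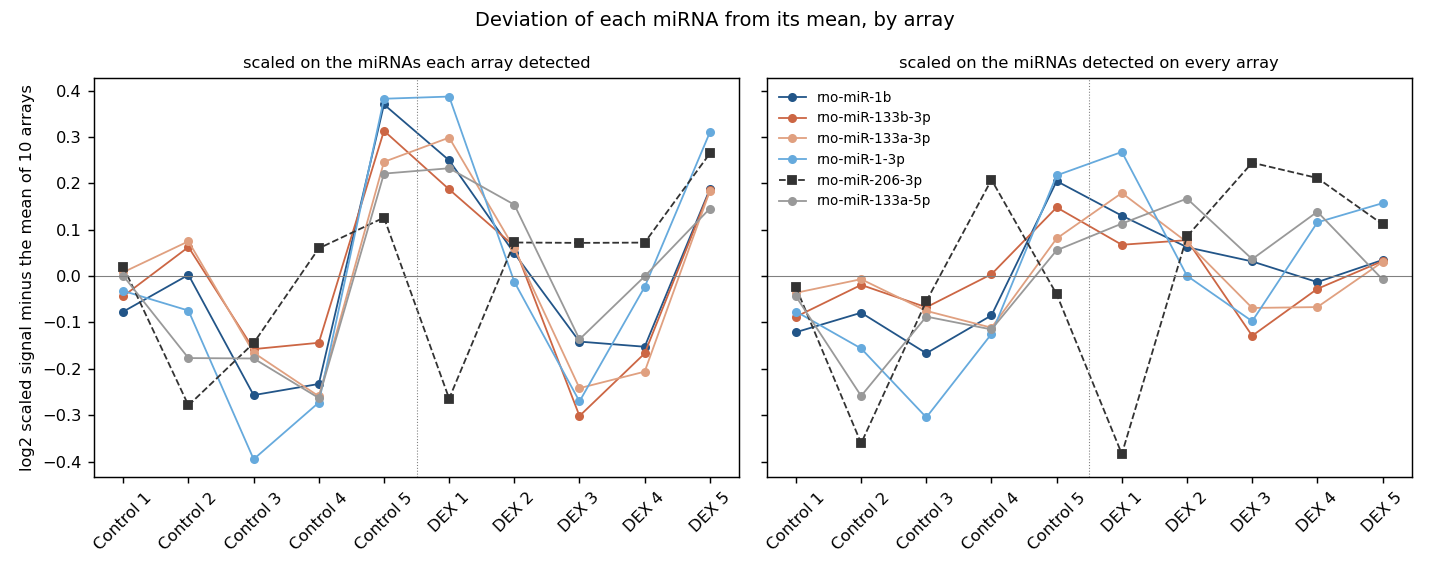
Log2 scaled signal of each member minus its mean over 10 arrays, by array (lines only guide the eye, and the dotted line separates Control from DEX), under both scalings. On the left the 5 solid lines run together and rno-miR-206-3p (dashed) does not, and on the right the solid lines lie closer to 0.

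Other miRNAs followed the members as closely as the members followed each other. Of 497 tested miRNAs outside the family, those with the highest r with rno-miR-1-3p over 10 arrays were rno-miR-143-3p (0.98), rno-miR-361-5p (0.97) and rno-miR-22-5p (0.97), and 38 had r above 0.9. For rno-miR-133a-3p they were rno-miR-409b (0.95), rno-miR-352 (0.95) and rno-miR-345-5p (0.94), and 20 had r above 0.9. With scaling on the miRNAs detected on every array, r was 0.94, 0.95 and 0.92 for the 3 named with rno-miR-1-3p, and 0.87, 0.82 and 0.65 for the 3 named with rno-miR-133a-3p. These are descriptions over the same 10 arrays. rno-miR-143-3p is a known smooth muscle miRNA, and its signal was 1435 to 2352 in Control and 1651 to 2479 in DEX.

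Of 12 other listed muscle miRNAs, 8 were tested and 0 were called at an adjusted P under 0.05 or at an unadjusted P under 0.05. All 8 had a higher mean in DEX, against 59.2% of all miRNAs tested, with a median log2 difference of 0.15. They are not 8 separate units, since both arms of miR-208a, miR-499 and miR-378a are among them. rno-miR-486 is also a red cell marker. On the main scale the median over all tested miRNAs was 0.044, against -0.16 without scaling and -0.19 with slide as a fixed term. The direction of the 8 in those fits was not examined. The 8 include the miRNAs carried in introns of myosin genes. rno-miR-208a-3p, from the alpha-myosin heavy chain gene, had a log2 difference of 0.14 ± 0.15 (SE), and rno-miR-499-5p, from Myh7b, also 0.14 ± 0.15 (SE; limma, adjusted P = 0.905 for both). The largest differences were 0.36 ± 0.41 (SE) for the dim rno-miR-208b-3p and 0.27 ± 0.15 (SE) for rno-miR-499-3p (limma, adjusted P = 0.905 for both).

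The partner arms of the other members were at or near the detection limit. rno-miR-1-5p was detected on 2 of 10 arrays, rno-miR-133b-5p on 4 and rno-miR-206-5p on 0, so none of them was tested, and rno-miR-133a-5p was the only minor arm of the family with a signal on every array. rno-miR-208b-5p was detected on 0 of 10 arrays. rno-miR-133c, whose gene lies opposite to Mir133a1 and whose 21 bases are complementary to rno-miR-133a-3p, was looked up after the values of the members were seen. It was detected on 3 of 10 arrays and did not exceed 6.18.
rno-miR-133c: cAGCUGGUugaaggggaccaa

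Markers of other cell types were compared beside the members. The red cell miRNA rno-miR-144-3p had a median of 76.5 in Control and 31.1 in DEX, and rno-miR-451-5p of 516 and 369, with overlapping groups, while the third of this list, rno-miR-486, had 143 and 150. The log2 difference was -0.75 ± 0.36 (SE) for rno-miR-144-3p and -0.59 ± 0.33 (SE) for rno-miR-451-5p. Neither passed (limma, adjusted P = 0.905 for both). The endothelial rno-miR-126a-3p had medians of 4700 and 4861. Of the smooth muscle list, rno-miR-143-3p had 1920 and 1924, and rno-miR-145-5p 1147 and 1200. Of the fibroblast list, rno-miR-21-5p had 852 and 995, rno-miR-199a-3p 391 and 442, and rno-miR-214-3p 92.2 and 91.8. All 4 white cell miRNAs had higher medians in DEX, with overlapping groups, namely rno-miR-223-3p (84.2 and 103), rno-miR-142-3p (67.6 and 84.3), rno-miR-142-5p (76.2 and 81.6) and rno-miR-150-5p (540 and 596). Of all miRNAs tested, 59.2% had a higher mean in DEX, and 0 passed at an adjusted P under 0.05 (limma). The part of such differences in the members' values was not tested.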

How the data were processed

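Rat left ventricular RNA was hybridized to 3D-Gene rat miRNA chips, 5 Control and 5 DEX, grouped by the labels. Per the file headers, the deposited scanner files hold spot intensity at 635 nm from 3 gain settings. The authors' value table holds a score, the blank-subtracted intensity scaled to a median of 25 over the 405 miRNAs detected on every array. This rule gave 99.8% of 5038 scores within 0.51. The miRBase release and software versions were not given in the sources used here.

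The mean of blank spots (5% trimmed at each end) was subtracted, each array was scaled to a median of 25 over its detected miRNAs, undetected miRNAs were set to the array's lowest detected value (3.64 to 5.09), and log2 was taken. limma 3.58.1 in R 4.3.3 was fitted without covariates to 503 miRNAs (detection on 5 or more arrays). Single values were compared by exact permutation in SciPy 1.17.1, and correlations by 100000 permutations in NumPy 2.4.6. Alternatives covered background, scaling, filter, floor, model, slide and each array left out.

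The members, lists and markers were chosen with earlier results of these data known. Named miRNAs were the members, miRNAs sharing a seed, the tested listed muscle miRNAs and the 3 closest by correlation to rno-miR-1-3p and rno-miR-133a-3p. Replicate numbers were not taken as pairs: correlations of same-numbered arrays were 0.062, -0.081, 0.11, -0.0030 and 0.079. Unused value columns numbered 0.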

Additional observations from a re-analysis of the deposited data

Results flagged for a closer look

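Of 44 sets of 5 arrays examined (the members, their pairs and the family share, in each group), 2 held an array that stood apart from the other 4 by more than 0.71 of the whole range, where chance would give 2.2. rno-miR-1b minus rno-miR-206-3p was 6.52 on the log2 scale on DEX 1, the highest of the DEX arrays. rno-miR-133a-3p minus rno-miR-133a-5p was 5.59 on Control 2, the highest of the Control arrays.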

How the results depend on the processing

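No member was called under any of the 31 alternatives run, no other listed muscle miRNA under 30, and no pair ratio under 11. The direction of the small log2 differences was not stable. Without background subtraction rno-miR-1b was -0.021 and rno-miR-133a-3p -0.060. With normexp and the blank mean (offset 50), rno-miR-1b was -0.038, rno-miR-133a-3p -0.077 and rno-miR-206-3p -0.0052. With normexp and the scanner's background column, rno-miR-1b was -0.022, rno-miR-206-3p -0.15, rno-miR-1-3p 0.78 and rno-miR-133a-3p 0.64, and the family share rose by 1.59 percentage points. That column was at or above the spot in 4 of 60 member spots. Without scaling, rno-miR-1-3p was -0.049, rno-miR-1b -0.13, rno-miR-133a-3p -0.17, rno-miR-133a-5p -0.047 and rno-miR-206-3p -0.12, with a median of -0.16 over all miRNAs. Quantile normalization gave -0.00083 for rno-miR-1-3p and -0.00079 for rno-miR-133a-3p, as it must where the 4 brightest ranks are the same on every array. rno-miR-133b-3p was 0.048 with spike control scaling, 0.0086 in the authors' value table and with scaling on the miRNAs detected on every array, and 0.0105 with slide as a random block.

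Slide as a fixed term gave the values within slide 2, namely -0.35 for rno-miR-1-3p, -0.32 for rno-miR-1b, -0.21 for rno-miR-133a-3p, -0.14 for rno-miR-133a-5p and -0.17 for rno-miR-206-3p. There rno-miR-1-3p minus rno-miR-1b was -0.030, minus rno-miR-133a-3p -0.14 and minus rno-miR-133b-3p -0.0175. With slide and the scaling on miRNAs detected on every array, chosen after seeing the data, rno-miR-1-3p was -0.16, rno-miR-1b -0.13 and rno-miR-133a-3p -0.020, while rno-miR-133a-5p was 0.050 and rno-miR-206-3p 0.021. Leaving out each array in turn gave -0.032 to 0.10 for rno-miR-133a-3p and -0.061 to 0.064 for rno-miR-133b-3p, and the other 4 members kept their direction. rno-miR-1-3p ranged from 0.077 (without Control 3) to 0.27 (without Control 5), rno-miR-1b from 0.023 to 0.18 (the same arrays), rno-miR-133a-5p from 0.11 (without Control 4) to 0.23 (without Control 5), and rno-miR-206-3p from 0.028 (without Control 2) to 0.16 (without DEX 1). The count of correlated pairs went from 10 to 1 with the scaling on miRNAs detected on every array. With the replicate number as a block, 0 members were called and no call changed. With the block and that scaling, rno-miR-133b-3p was 0.0086. The causes of these reversals were not tested beyond what is stated. Slide and group could be separated only through Control 5, and signal over background limited the 4 listed miRNAs that were too dim to test.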
